A study of Mus musculus with 16 samples.

Results

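The NF-κB family of transcription factors was followed through 10 genes of the liver transcriptome, out of 41079 genes in the deposited table. They were taken by role, as Nfkb1, Nfkb2, Rela and Relb for the DNA-binding subunits, Bcl3 for a nuclear cofactor, Nfkbia and Tnfaip3 for feedback inhibitors, Ier3 and Icam1 for induced targets, and Tnf for an activating ligand. NF-κB subunits wait in the cytoplasm as dimers bound to inhibitor proteins, and kinases that mark the inhibitors for destruction let the dimers enter the nucleus. The dimers then switch on inflammatory and survival genes together with their own inhibitors, so that the transcripts of the inhibitors rise along with the targets and end the response. In liver the pathway is known both for protecting hepatocytes from death induced by TNF and for driving the cytokine output of resident macrophages.

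The mice were liver-specific knockouts of the glucagon receptor gene Gcgr (LKO) and Cre-negative controls (CRE-), of both sexes, on the C57BL/6J background and aged 20 to 22 months. All 4 groups carried the Gcgr allele flanked by LoxP sites, and the LKO groups also carried Cre under the albumin promoter, which is active in cells of the hepatocyte lineage from early life, so that the loss was lifelong and not induced in old age. The comparisons ask what the loss of hepatic glucagon signalling does to these transcripts in old male and old female liver. Each group had 4 livers, numbered 1 to 4 as replicates, and each liver was 1 library. Library totals ran from 33268424 to 56488920 counts.

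The markers of liver tissue were present. All 6 hepatocyte markers examined were present in every library, and albumin (Alb) alone averaged 70689 CPM (counts scaled to a common library size with TMM factors, the unit of all levels given). Gcgr itself was counted over every exon, also those that the Cre recombinase leaves in place, so residual counts do not measure intact receptor. It was at 190.4, 192.9, 127 and 189.6 CPM in male CRE- livers 1 to 4 and at 117, 136, 129.9 and 160.3 CPM in male LKO livers. Female CRE- livers had 162, 208, 201 and 180.0 CPM, and female LKO livers had 48.8, 132, 119 and 93.6 CPM. Every female LKO liver was below every female control, while the male groups overlapped, and female LKO liver 1 was the lowest of all 16. The log2 fold change of Gcgr was -0.37 (SE 0.24, adjusted p = 0.671) in males and -0.93 (SE 0.25, adjusted p = 0.0443, lower in 4 of 4 livers) in females, a difference between the sexes of -0.57 (adjusted p = 0.412; -0.31 without female LKO liver 1). The female call held in 3 of 16 fits that left out a liver, those without female LKO liver 2, male CRE- liver 2 or male CRE- liver 3. Over the 16 fits its adjusted p ran from 0.0225 without female LKO liver 2 to 0.136 without female CRE- liver 2, and the log2 fold change from -1.11 to -0.69. Of 8 other alternatives, 4 put the adjusted p above the threshold (0.0506 with at least 10 counts in every library, 0.0545 with no filter, 0.0707 with upper-quartile factors and 0.132 with females alone). The other 4 kept it below, at 0.0485 with RLE factors, 0.0266 with the replicate block, 0.00859 by limma-voom and 0.00807 by DESeq2. The replicate block adds the replicate number as a term, though the labels do not give these numbers as pairs across groups.

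All 10 NF-κB genes passed the filter on low counts, as did 16742 genes in total. Differences were called at a Benjamini-Hochberg adjusted p under 0.05 over all genes tested. In males 0 of the 10 were called by edgeR, where 0.454% of all genes were (76 genes). By DESeq2 and limma-voom 0 were called, beside 2.03% and 0.884% of the genes given an adjusted p. At an unadjusted p under 0.05 in edgeR, 1 of the 10 was higher in male LKO livers (Nfkbia), where 4.79% of all genes were, and 0 were lower, where 4.74% of all genes were. No member had such a p in males by limma-voom, with males alone, or without male CRE- liver 2, male CRE- liver 3 or male LKO liver 1. In the same order 2264 of 16742, 1529 of 15595, 1920 of 17098, 1130 of 17065 and 1395 of 17070 genes had one, in either direction. In females 1 of the 10 was called, Ier3, which was higher, where 4.24% of all genes were called (710 genes) and 2.09% were called higher. At an unadjusted p under 0.05, 5 of the 10 were higher in female LKO livers (Relb, Nfkbia, Tnfaip3, Ier3 and Icam1) and 0 lower, where 12.3% of all genes were higher and 9.14% lower. Without single livers the number with such a p ran from 3 without female LKO liver 4 to 7 without female LKO liver 2. In these 2 fits 3494 of 17081 and 4078 of 17105 genes had such a p, in either direction. By DESeq2's Wald test 4 of the 10 were called in females, Nfkbia, Tnfaip3, Ier3 and Icam1, against 11.1% of the genes to which it gave an adjusted p.

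The difference between the sexes, taken as the female minus the male LKO effect, was called by edgeR for 0 of the 10 and for 0.00% of all genes. DESeq2 and limma-voom called it for 0 of the 10, and for 371 and 29 genes in all. At an unadjusted p under 0.05 in edgeR, 2 of the 10 had a greater effect in females (Tnfaip3 and Ier3), against 9.28% of all genes. Without single livers the members at this unadjusted p ran from 1 (without female LKO liver 4 or male CRE- liver 4) through 3 (without female LKO liver 3) and 4 (without male CRE- liver 2 or 3, female CRE- liver 4 or female LKO liver 2) to 5 (without male LKO liver 1), and they were 5 by limma-voom and with the replicate block. Genes with such a p numbered 2726 of 17081 without female LKO liver 4 and 2896 of 17075 without male CRE- liver 4. They were 2883 of 17070 without male LKO liver 1, 3651 of 16742 by limma-voom and 3113 with the replicate block, in either direction. By DESeq2 and with no filter on low counts 3 members had such a p, as did 3004 of 16742 and 3391 of 26379 genes. No member was therefore shown to differ between the sexes. In females 9 of the 10 fold changes were positive, the median being 0.85 on the log2 scale, while 53.1% of all genes tested were positive with a median of 0.04. The exception, Bcl3, lay at -0.00124 and was positive with RLE or upper-quartile scaling, which moved the median of all genes in females by 0.01 and 0.04. In males 4 of the 10 were positive and the median was -0.04, against 49.1% and a median of -0.01 for all genes. The male signs of Nfkb1, Rela, Relb, Icam1 and Ier3 changed when single livers were left out.

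**Figure D1:**
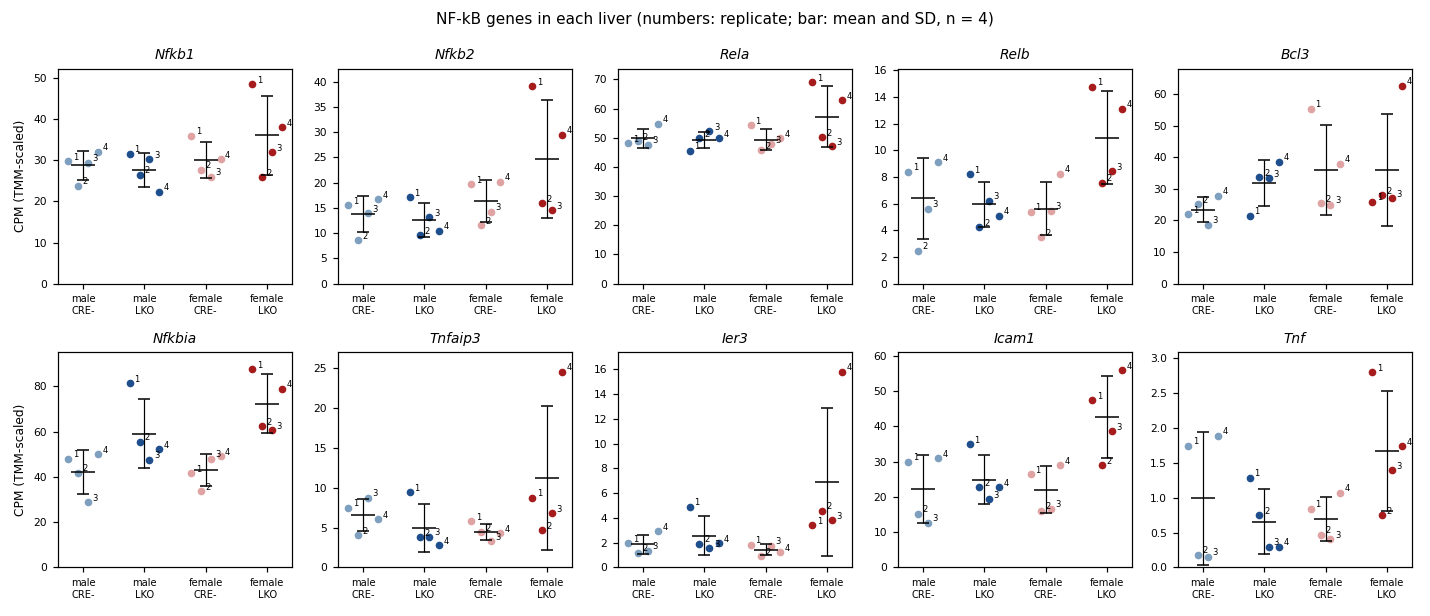
Level of each NF-κB gene in each liver, in CPM on linear axes that start at 0. Points are livers with their replicate number, bars are group means with SD (n = 4). Female LKO livers lie above all female controls for Nfkbia and Ier3, and liver 4 of that group stands at 15.8 CPM for Ier3.

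**Figure D2:**
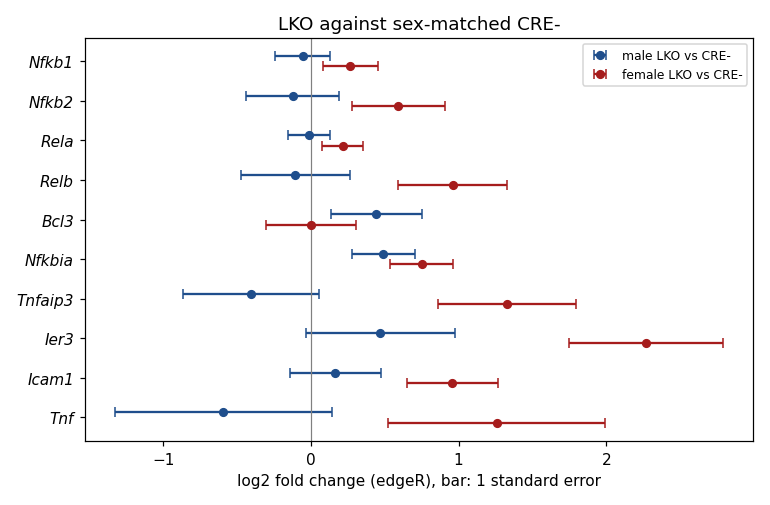
Log2 fold change of LKO against sex-matched CRE- livers for each NF-κB gene, with bars of 1 standard error. Female values are positive for 9 genes, all but Bcl3, whose value of -0.00124 was positive under scalings that moved the median of all genes by 0.01 and 0.04, and male values lie between -0.59 and 0.49.

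Rela encodes p65, the subunit that carries most of the activating domain in the classical dimer, and it lies on chromosome 19 of GRCm39 from 5686993 to 5698162. It was at 48.2, 48.7, 47.6 and 54.8 CPM in male CRE- livers and at 45.5, 49.8, 52.2 and 49.8 CPM in male LKO livers. Female CRE- livers stood at 54.3, 45.8, 47.7 and 49.8 CPM, and female LKO livers at 69.0, 50.2, 47.0 and 62.8 CPM. The groups overlapped in both sexes, and female LKO livers 1 and 4 were above every other liver. The log2 fold change was -0.01 (SE 0.14, adjusted p = 0.987) in males and 0.21 (SE 0.14, adjusted p = 0.416) in females, where it was 0.13 without LKO liver 1 and 0.09 by limma-voom. Over all 16 livers Rela had the smallest SD of log2 CPM of the 10 (0.16). Its SD within groups ran from 0.08 to 0.26, where the median gene tested had 0.28 to 0.49.

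Nfkb1 (chromosome 3, 135290416 to 135397422) encodes p105, the precursor of the p50 partner of p65. Its male levels were 29.8, 23.9, 29.4 and 32.1 CPM in CRE- livers against 31.6, 26.4, 30.2 and 22.3 CPM in LKO livers, and the groups overlapped, with LKO liver 4 below every control. Female levels were 36.0, 27.7, 26.0 and 30.2 CPM in CRE- livers and 48.5, 25.9, 32.0 and 38.0 CPM in LKO livers. Again LKO livers 1 and 4 were the highest of the females, and LKO liver 2 was below all female controls. Nfkb1 changed on the log2 scale by -0.06 (SE 0.19, adjusted p = 0.945) in males and 0.27 (SE 0.19, adjusted p = 0.452) in females, where it was 0.11 without LKO liver 1 and 0.15 by limma-voom.

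The remaining subunits belong to the alternative branch of the pathway, in which p100, the product of Nfkb2, is cut to p52 and works with the product of Relb. Nfkb2 (chromosome 19, 46285478 to 46300839) was at 15.6, 8.64, 13.9 and 16.8 CPM in male CRE- livers and at 17.1, 9.62, 13.2 and 10.5 CPM in male LKO livers. In females it was at 19.7, 11.6, 14.3 and 20.2 CPM in CRE- livers and at 39.1, 15.96, 14.5 and 29.5 CPM in LKO livers. LKO livers 1 and 4 exceeded all other livers, and LKO livers 2 and 3 lay within the female control range. On the log2 scale its change was -0.13 (SE 0.31, adjusted p = 0.924) in males and 0.59 (SE 0.31, adjusted p = 0.291) in females, where it was 0.30 without LKO liver 1 and 0.30 by limma-voom. The male value ran from -0.33 without LKO liver 1 to -0.01 without CRE- liver 4. Exons of Nfkb2 overlap those of 4833438C02Rik and Psd on the other strand, which averaged 102.9 and 21.3 counts per library against 707.7 for Nfkb2. The authors counted in featureCounts' reverse-stranded mode, which parts such genes only where the library keeps the strand, and the sources used here do not name the strand chemistry of the kit.

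Relb (chromosome 7, 19340142 to 19363352) was at 8.38, 2.45, 5.62 and 9.12 CPM in male CRE- livers and at 8.21, 4.25, 6.21 and 5.11 CPM in male LKO livers. Female CRE- livers had 5.39, 3.46, 5.46 and 8.23 CPM, and female LKO livers had 14.8, 7.55, 8.43 and 13.1 CPM. Control liver 4 was above LKO liver 2, the only overlap between the female groups, and male controls spread 3.72-fold. Relb changed on the log2 scale by -0.11 (SE 0.37, adjusted p = 0.949) in males and 0.96 (SE 0.37, adjusted p = 0.140) in females. In female minus male terms it was 1.07 (SE 0.52, adjusted p = 0.324). All 4 female LKO livers were above the female control mean of 5.64 CPM. With the replicate block, whose numbers are not given as pairs across groups, the female adjusted p of Relb was 0.0329, below the threshold. Under the other alternatives it ran from 0.0536 by limma-voom to 0.174 with no filter on low counts.

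Bcl3 (chromosome 7, 19542387 to 19556691) encodes a nuclear protein of the inhibitor family that binds p50 or p52 homodimers and can turn them into activators. Male CRE- livers had 22.0, 25.2, 18.6 and 27.8 CPM, and male LKO livers had 21.5, 33.6, 33.3 and 38.6 CPM. Female CRE- livers had 55.4, 25.4, 25.0 and 37.9 CPM, and female LKO livers had 26.0, 28.0, 27.1 and 62.6 CPM. In each female group a single liver stood high, liver 1 of the controls and liver 4 of the LKO mice, and the means were equal at 35.9 CPM. The female value on the log2 scale was -0.00124 with an SE of 0.31 (adjusted p = 0.999), far smaller than its error, and it was positive in 10 of 16 fits that left out a liver (-0.41 without LKO liver 4 to 0.28 without CRE- liver 1). In males the shift was 0.44 on the log2 scale with an SE of 0.31 (adjusted p = 0.686), with 3 of 4 LKO livers above every male control.

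Among the feedback inhibitors, Nfkbia (chromosome 12, 55536194 to 55539432) encodes IκBα, which captures the dimers again after activation. Male CRE- livers had 48.0, 41.8, 28.8 and 49.9 CPM, and male LKO livers had 81.2, 55.4, 47.6 and 52.2 CPM. In females CRE- livers had 41.5, 33.6, 48.0 and 49.0 CPM, and female LKO livers had 87.5, 62.3, 60.5 and 78.9 CPM. Every female LKO liver was above every female control, and in males 3 of 4 LKO livers were above every control. Nfkbia and Ier3 were the 2 of 10 members without overlap in females, where 5.20% of all genes had every LKO liver above every control, and no member reached this in males, where 3.57% did. The female shift was 0.75 on the log2 scale with an SE of 0.21 (adjusted p = 0.0563) and fell just short of the threshold. In males it was 0.49 with an SE of 0.21 (adjusted p = 0.467), the difference between the sexes being 0.26 (SE 0.30, adjusted p = 0.676). The male value was 0.28 without male LKO liver 1 and 0.30 by limma-voom, and the difference ran from 0.16 without female CRE- liver 2 to 0.48 without male LKO liver 1.

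The female result for Nfkbia moved across the threshold with single livers. Without female LKO liver 2, male CRE- liver 3 or male LKO liver 1 the adjusted p was 0.0430, 0.0358 and 0.0391. In the fits without any other liver it lay above 0.05, up to 0.186 without female CRE- liver 2. The female log2 fold change ranged from 0.65 to 0.83 over these fits. The adjusted p was also below the threshold by DESeq2 (0.0137), by limma-voom (0.0227), with the replicate block (0.0301) and with at least 10 counts in every library (0.0484), and from 0.0522 to 0.0801 under the other alternatives.

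Tnfaip3 (chromosome 10, 18876658 to 18891158) encodes A20, an enzyme that edits ubiquitin chains and shuts off signalling upstream of the kinases. In males it was at 7.47, 4.01, 8.74 and 6.02 CPM in CRE- livers and at 9.39, 3.77, 3.83 and 2.81 CPM in LKO livers. In females it was at 5.77, 4.44, 3.304 and 4.28 CPM in CRE- livers and at 8.71, 4.69, 6.80 and 24.5 CPM in LKO livers. Female LKO liver 4 had 24.5 CPM, the highest of all 16 libraries, and 3 of 4 female LKO livers were above every female control. The log2 fold change was 1.33 (SE 0.47, adjusted p = 0.108) in females and -0.41 (SE 0.46, adjusted p = 0.814) in males, where it ran from -0.94 without LKO liver 1 to -0.23 without LKO liver 4. The difference between the sexes was 1.73 (SE 0.66, unadjusted p = 0.0173 and adjusted p = 0.241 in edgeR's test), and it was 1.02 without female LKO liver 4 and 2.28 without male LKO liver 1. The female value was 0.60 without female LKO liver 4 (adjusted p = 0.412), and 1.58 without female LKO liver 2 (adjusted p = 0.0454). By DESeq2 the female adjusted p was 0.0404, below the threshold, and under the other alternatives it ran from 0.102 to 0.169. By limma-voom the log2 fold change was 0.81 in females and -0.71 in males.

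Ier3 (chromosome 17, 36132605 to 36133803) is an immediate early gene whose product affects cell survival under stress, and it is induced by NF-κB within a short time of stimulation. Male CRE- livers had 1.95, 1.203, 1.35 and 2.92 CPM, and male LKO livers had 4.89, 1.92, 1.54 and 1.94 CPM. Female CRE- livers had 1.82, 0.895, 1.77 and 1.23 CPM, and female LKO livers had 3.42, 4.59, 3.80 and 15.8 CPM. The lowest female LKO liver was above the highest female control, and the means differed 4.83-fold. In raw counts Ier3 ran from 46 to 546 per library. The female shift was 2.27 on the log2 scale with an SE of 0.52 (adjusted p = 0.0277), higher in 4 of 4 LKO livers. In males the log2 fold change was 0.47 (SE 0.50, adjusted p = 0.801) and the groups overlapped. The difference between the sexes was 1.80 (SE 0.72, unadjusted p = 0.0225 and adjusted p = 0.254 in edgeR's test), so it was not shown that the sexes differ, and it was 1.01 without female LKO liver 4 and 2.35 without male LKO liver 1.

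The call of Ier3 in females depended on single livers. Without female LKO liver 4 its log2 fold change was 1.46 and its adjusted p 0.0696. The adjusted p was 0.102, 0.0736 and 0.0778 without female CRE- livers 2, 3 and 4, at log2 fold changes of 2.10, 2.39 and 2.23. It was at most 0.0488 in the other 12 fits that left out a liver. With females fitted alone the adjusted p was 0.0758, the highest over the alternatives that kept all 4 livers of each female group, and the lowest was 0.000430 by DESeq2.

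Icam1 (chromosome 9, 20927236 to 20940110) encodes an adhesion receptor by which leukocytes hold on to endothelium and hepatocytes. Male CRE- livers had 29.97, 15.3, 12.7 and 31.0 CPM, and male LKO livers had 34.9, 22.7, 19.4 and 22.7 CPM. Female CRE- livers had 26.4, 16.001, 16.6 and 29.0 CPM, and female LKO livers had 47.5, 29.0, 38.6 and 55.9 CPM. LKO liver 2 and control liver 4 nearly met, at 29.00 and 29.03 CPM, and the other 3 female LKO livers were above every female control. In females Icam1 was shifted by 0.96 on the log2 scale (SE 0.31, adjusted p = 0.0843), and in males it was 0.17 (SE 0.31, adjusted p = 0.893). Between the sexes the difference was 0.79 (SE 0.44, adjusted p = 0.363). Without female LKO liver 2 the female adjusted p was 0.0467, below the threshold, and in the fits without any other liver it was above it, up to 0.241 without female CRE- liver 2. It was also below the threshold with the replicate block (0.0115), by limma-voom (0.0146) and by DESeq2 (0.0351), and from 0.0810 to 0.104 under the other alternatives.

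Tnf (chromosome 17, 35418343 to 35420983) encodes the cytokine that both activates NF-κB and is made under its control, mostly by macrophages. It was the rarest of the 10, with 6 to 111 counts per library, so that counting error adds to the spread. Male CRE- livers had 1.74, 0.178, 0.156 and 1.89 CPM, and male LKO livers had 1.29, 0.750, 0.298 and 0.297 CPM. In female CRE- livers it was at 0.843, 0.467, 0.407 and 1.07 CPM, and female LKO livers had 2.79, 0.748, 1.39 and 1.74 CPM. The male controls were split, with livers 1 and 4 far above livers 2 and 3 and a 12.1-fold range, the widest in any group for any of the 10. Female LKO livers 1, 3 and 4 were above every female control. The log2 fold change was 1.26 (SE 0.74, adjusted p = 0.349) in females and -0.59 (SE 0.73, adjusted p = 0.825) in males. The male value ran from -1.17 without LKO liver 1 to -0.08 without CRE- liver 4 and was -0.17 with the replicate block, and the female value ran from 0.91 without LKO liver 1 to 1.54 without CRE- liver 4.

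Compared per kilobase of the GENCODE canonical transcript, which allows levels of different genes to be set side by side, the mean over 16 livers followed the order Nfkbia (34.3 CPM per kilobase), Rela (18.9), Bcl3 (15.7), Icam1 (8.90), Nfkb1 (6.51), Ier3 (2.80), Nfkb2 (2.499), Relb (2.13), Tnfaip3 (0.982) and Tnf (0.612). In female CRE- livers Nfkbia was at 27.3 ± 4.49 CPM per kilobase (SD, n = 4), Rela at 18.2 ± 1.34, Bcl3 at 17.8 ± 7.08, Icam1 at 7.001 ± 2.12 and Nfkb1 at 6.38 ± 0.928. The rarer members there were Nfkb2 at 2.43 ± 0.622 CPM per kilobase, Relb at 1.66 ± 0.578, Ier3 at 1.25 ± 0.391, Tnfaip3 at 0.644 ± 0.147 and Tnf at 0.425 ± 0.192. In that group Nfkbia did not overlap Rela, Bcl3 did not overlap Icam1 and Nfkb1 did not overlap Nfkb2, while all other neighbours in the order overlapped. In female LKO livers Nfkbia reached 45.8 ± 8.29 CPM per kilobase, Rela 21.1 ± 3.82, Bcl3 17.8 ± 8.83 and Icam1 13.6 ± 3.68. Nfkb1 was at 7.67 ± 2.05 CPM per kilobase there, Nfkb2 at 3.67 ± 1.73 and Ier3 at 6.06 ± 5.22, the last from 3.01 to 13.9 with liver 4 the highest. Relb was at 3.23 ± 1.03, Tnfaip3 at 1.62 ± 1.31 and Tnf at 1.02 ± 0.522 CPM per kilobase in that group. In male CRE- livers Nfkbia was at 26.7 ± 6.05 CPM per kilobase (SD, n = 4), Rela at 18.3 ± 1.23, Bcl3 at 11.6 ± 1.97, Icam1 at 7.07 ± 3.05 and Nfkb1 at 6.12 ± 0.744. The rest of that group ran from Nfkb2 at 2.03 ± 0.530 CPM per kilobase through Relb at 1.88 ± 0.893, Ier3 at 1.63 ± 0.685 and Tnfaip3 at 0.950 ± 0.294 to Tnf at 0.605 ± 0.582. In male LKO livers Nfkbia was at 37.5 ± 9.56 CPM per kilobase, Rela at 18.2 ± 1.03, Bcl3 at 15.8 ± 3.59, Icam1 at 7.93 ± 2.17 and Nfkb1 at 5.88 ± 0.886, followed by Ier3 at 2.26 ± 1.36. Next came Nfkb2 at 1.86 ± 0.497, Relb at 1.75 ± 0.504, Tnfaip3 at 0.716 ± 0.434 and Tnf at 0.401 ± 0.287 CPM per kilobase. With the gene lengths of the deposited table, Bcl3 came before Rela and Tnfaip3 before Relb in the mean over 16 livers, and the rest of that order was the same.

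Liver by liver, female LKO liver 4 was above every female control in 10 of 10 genes and liver 1 in 9 of 10, all but Bcl3, where 27.8% and 37.3% of all genes tested were. Liver 3 was above every control in 6 of 10 and liver 2 in 2 of 10, Nfkbia and Ier3, where 24.8% and 22.5% of all genes were. Of the 10 genes, 6 had their highest level of all 16 libraries in female LKO liver 1 and 4 had it in female LKO liver 4, where 19.6% and 8.98% of all genes tested had theirs. Male LKO liver 1 was above every male control in 5 of 10, while male LKO livers 2, 3 and 4 were so in 2, 1 and 2, beside 20.2%, 17.7%, 16.4% and 22.3% of all genes in livers 1 to 4. Among male controls, liver 4 had the highest level in 9 of 10 genes and livers 2 and 3 the lowest in 5 each. These ranks within a group have no share of all genes beside them, so they do not show a trait of the members. Other measures of these livers differed as well. Mitochondrial transcripts took 4.10%, 4.39%, 3.96% and 2.83% of counts in female LKO livers 1 to 4 and 4.401%, 5.40%, 4.75% and 4.57% in female CRE- livers, and limma-voom gave female LKO liver 1 the lowest quality weight of the 16 (0.216). Their part in the levels of the 10 genes was not tested.

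For each member the gene of most like pattern was found as the one with the smallest root mean square difference of centred log2 CPM over the 16 libraries. For the members that vary most these were Plaur for Ier3 (0.43, against an SD of 1.01 for Ier3 itself), Dram1 for Tnf (0.41, SD 1.17), Anxa1 for Tnfaip3 (0.36, SD 0.77), Icosl for Relb (0.27, SD 0.66) and Ppp1r18 for Icam1 (0.19, SD 0.60). They were Mlkl for Nfkb2 (0.21, SD 0.56), Stap2 for Bcl3 (0.25, SD 0.47) and Chic2 for Nfkbia (0.22, SD 0.44). For the steady genes Nfkb1 and Rela they were Git2 (0.12, SD 0.27) and Cant1 (0.10, SD 0.16), which vary little to begin with. Within the list, Relb and Nfkb2 were closest to each other at 0.32, as were Icam1 and Nfkbia at 0.31, and Nfkb1 and Rela at 0.18. Genes outside the list lay closer in each case. Nfkb2 was number 11 of the genes nearest to Relb, and Relb number 46 for Nfkb2. Nfkbia was number 39 for Icam1, and Icam1 number 132 for Nfkbia. Rela was number 20 for Nfkb1, and Nfkb1 number 213 for Rela, at a difference above the SD of Rela itself.

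A further 51 genes of the pathway were examined, of which 49 passed the filter and Lta and Tnfsf11 did not. By edgeR 0 were called in males, and at an unadjusted p under 0.05 the counts were 0 upward and 2 downward, beside 4.79% and 4.74% of all genes. In females 3 were called, all higher and all receptors, out of 7 receptors tested, and no kinase, adaptor, inhibitor, ligand or ubiquitin-editing gene was. Beside these 3 of 49, 2.09% of all genes were called higher, and at an unadjusted p under 0.05 the female counts were 8 of 49 upward, beside 12.3% of all genes, and 0 downward, beside 9.14%. Tnfrsf12a, the receptor for the cytokine TWEAK, was at 6.12, 6.38, 6.44 and 7.06 CPM in female CRE- livers and at 15.004, 18.6, 9.66 and 68.1 CPM in female LKO livers. All LKO livers were above all controls, by 2.10 on the log2 scale with an SE of 0.45 (adjusted p = 0.0225). Il1r1, the receptor for interleukin-1, was at 42.7, 15.1, 17.3 and 9.19 CPM in female CRE- livers and at 79.2, 47.0, 46.8 and 101.4 CPM in female LKO livers, again without overlap. The shift was 1.70 on the log2 scale with an SE of 0.38 (adjusted p = 0.0250). Tnfrsf11a, which encodes RANK, was at 2.22, 1.40, 0.910 and 1.95 CPM in female CRE- livers and at 11.7, 1.89, 5.80 and 4.34 CPM in female LKO livers, where liver 2 lay within the control range. The shift was 1.87 on the log2 scale with an SE of 0.47 (adjusted p = 0.0381). The median female log2 fold change was 1.13 for the 7 receptors, 0.90 for the 6 ligands tested, 0.44 for the 4 other inhibitors, 0.21 for the 9 ubiquitin-editing genes, 0.14 for the 12 adaptors and 0.11 for the 10 kinases.

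In males 34 of the 49 had negative fold changes, the median being -0.07 on the log2 scale, where 50.9% of all genes were negative with a median of -0.01. The smallest unadjusted p among them belonged to Ikbkb, the kinase that marks IκBα for destruction. It was at 59.2, 55.5, 60.9 and 42.0 CPM in male CRE- livers and at 33.1, 39.7, 36.5 and 33.5 CPM in male LKO livers, without overlap. Its log2 fold change was -0.61 in males (unadjusted p = 0.00785 and adjusted p = 0.290 in edgeR's test) and -0.25 in females (adjusted p = 0.509). Rel, which encodes the remaining subunit c-Rel, had log2 fold changes of -0.61 in males (adjusted p = 0.503) and 0.54 in females (adjusted p = 0.273). Birc3, Traf3 and Tnfrsf1b followed in males with values of -0.41, -0.60 and -0.40, none past the threshold. On the upward side in males were Tnip3 (3.15, from a level of 2.42 CPM in LKO liver 1 and at most 0.180 CPM in the other male livers), Tnfrsf12a (0.85), Cxcl10 (0.52) and Sod2 (0.21), the last pair from the target list, with adjusted p between 0.560 and 0.765. In females the downward side held Sod2 (-0.26), Ikbkb, Nfkbib (-0.24), Chuk (-0.18) and Irf1 (-0.17), with adjusted p between 0.429 and 0.792.

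Of 25 further target genes, 22 passed the filter, and Ccl20, Ptgs2 and Il6 did not. By edgeR 0 were called in males, and at an unadjusted p under 0.05 the counts were 1 upward and 0 downward, beside the same shares of all genes. In females 1 was called higher, Plau, which encodes urokinase, and 0 lower. Beside this 1 of 22, 2.09% of all genes were called higher. Plau was at 2.62, 1.75, 2.73 and 3.21 CPM in female CRE- livers and at 29.1, 3.22, 5.78 and 8.04 CPM in female LKO livers, where liver 2 exceeded the highest control by little. On the log2 scale the shift was 2.16 with an SE of 0.55 (adjusted p = 0.0401). At an unadjusted p under 0.05, 9 of the 22 were higher and 0 lower in females, where 12.3% of all genes were higher and 9.14% lower, and the 9 included all 3 adhesion genes. Among these Vcam1 was at 28.0, 16.5, 21.4 and 53.0 CPM in female CRE- livers and at 541, 26.8, 52.2 and 56.2 CPM in female LKO livers. Its female shift of 2.51 on the log2 scale with an SE of 0.73 (adjusted p = 0.0622) came with LKO liver 1 far above the rest, and the groups overlapped. Gadd45b, a stress gene, had the smallest unadjusted p of both lists in males, at 2.23, 1.07, 1.46 and 2.22 CPM in CRE- livers and 42.6, 3.21, 5.52 and 2.76 CPM in LKO livers. Its log2 fold change was 2.95 in males (adjusted p = 0.100) and 1.70 in females (adjusted p = 0.155), with no overlap of the groups in either sex. The median log2 fold change of the 22 was 0.65 in females and -0.12 in males.

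Whole liver mixes cell types, and fewer cells of a type cannot be told apart from less RNA per cell in such samples. Markers of other cell types are therefore given beside these results. In females the 6 Kupffer cell markers all had positive fold changes (median log2 fold change 1.64, 1 of 6 called), as did the 7 markers of recruited macrophages (1.81, 2 of 7 called) and the 5 tested of 6 neutrophil markers (2.86, 1 of 5 called), beside 2.09% of all genes called higher and 53.1% positive. At an unadjusted p under 0.05 in edgeR, 6 of 6, 6 of 7 and 5 of 5 were higher in females, beside 12.3% of all genes. In males the median was 0.08, 0.06 and -1.52, with 0 called by edgeR and, at an unadjusted p under 0.05, 4 of 5 neutrophil markers lower, beside 4.74% of all genes. Summed over the list, Kupffer cell markers were at 546, 420.1, 460.2 and 767 CPM in female CRE- livers and at 3026, 708, 1592 and 881 CPM in female LKO livers, Cd5l being the most abundant. Markers of recruited macrophages summed to 343, 202, 219 and 354 CPM in female CRE- livers and to 602, 500.3, 728 and 633 CPM in female LKO livers, mostly from Lyz2. Neutrophil markers summed to 35.6, 20.1, 16.5 and 16.5 CPM in female CRE- livers and to 106, 43.4, 58.2 and 496 CPM in female LKO livers, led by S100a9. By these sums female LKO liver 1, highest in 6 NF-κB genes, was highest for Kupffer cell markers. Liver 4, highest for the other 4, was highest for neutrophil markers, and liver 3 for recruited macrophage markers. Single markers did not all follow the sums. S100a8 (194 CPM) and S100a9 (258 CPM) made most of the neutrophil sum in liver 4, where Retnlg and Ly6g were also highest. Csf3r and Cxcr2 were highest in liver 1 (30.2 and 4.20 CPM, beside 13.2 and 4.11 CPM in liver 4). Vsig4, a Kupffer cell marker, was highest in liver 3.

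Male controls showed the same kind of spread. Kupffer cell markers summed to 620, 346, 179 and 907 CPM in male CRE- livers 1 to 4. Recruited macrophage markers summed to 400.3, 163, 111 and 587 CPM and neutrophil markers to 72.4, 20.2, 15.9 and 131 CPM. Livers 1 and 4 were thus high in all 3 lists. They were also above livers 2 and 3 in Tnf, Icam1, Relb, Nfkb2, Nfkbia and Ier3, and by little in Nfkb1 (29.8 CPM in liver 1, 29.4 CPM in liver 3). The other members went otherwise. Tnfaip3 was highest in liver 3 (8.74 CPM), and Rela and Bcl3 were higher in liver 2 (48.7 and 25.2 CPM) than in liver 1 (48.2 and 22.0 CPM). Male LKO livers had 852, 472, 548 and 495 CPM of Kupffer cell markers, 507, 257, 260.2 and 239 CPM of recruited macrophage markers and 26.8, 16.3, 12.7 and 12.5 CPM of neutrophil markers. Ly6g was the only marker of any list without counts in some library, at 0 in 9 of the 16. The part of these cells in the levels of the NF-κB genes was not tested.

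Further lists cover other cells and proliferation. Hepatocyte markers summed to 116913 ± 10120 CPM (SD, n = 4) in female CRE- livers and 73961 ± 19814 CPM in female LKO livers, and to 90308 ± 14755 and 78314 ± 10784 CPM in males, with 0 of 6 called by edgeR in either sex and 1 lower in females at an unadjusted p under 0.05, beside 9.14% of all genes. Alb made most of these sums, at 95605.5 CPM in female CRE- livers and 59094.7 CPM in female LKO livers. All 6 hepatocyte markers had negative fold changes in females (median -0.51 on the log2 scale, from -0.17 for Hnf4a to -0.89 for Ttr). In males 4 of 6 had positive ones (median 0.04). The 4 proliferation markers, led by Mki67, summed to 8.78, 6.72, 4.02 and 15.8 CPM in female CRE- livers and to 71.2, 12.8, 27.9 and 28.1 CPM in female LKO livers, with 3 of 4 called higher, beside 2.09% of all genes. Male sums were 10.4 ± 6.499 CPM (SD, n = 4) in CRE- and 8.64 ± 3.83 CPM in LKO livers. Of 6 endothelial markers, led by Stab2, 4 were positive in females and 1 was called higher, while Clec4g and Kdr were at -0.70 and -0.12 on the log2 scale, and the sum was 239 ± 28.5 CPM in female CRE- and 288 ± 54.2 CPM in female LKO livers. No marker of T and NK cells (7 genes), B and plasma cells (6), stellate cells (6) or cholangiocytes (5) was called in either sex. Their median log2 fold changes were 0.28, 0.59, 0.05 and 0.24 in females and -0.01, 0.08, -0.62 and 0.44 in males. In males 5 of 6 stellate cell markers were negative, beside 50.9% of all genes. Of these markers 1 was lower at an unadjusted p under 0.05 in edgeR (Pdgfrb), beside 4.74% of all genes. Stellate cell markers summed to 97.8, 106, 367 and 113 CPM in male CRE- livers and to 127, 100.4, 99.4 and 93.0 CPM in male LKO livers, so that control liver 3 alone stood apart. Their most abundant genes were Nkg7, Jchain, Reln and Spp1, the last of which is also on the recruited macrophage list.

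**Figure D3:**
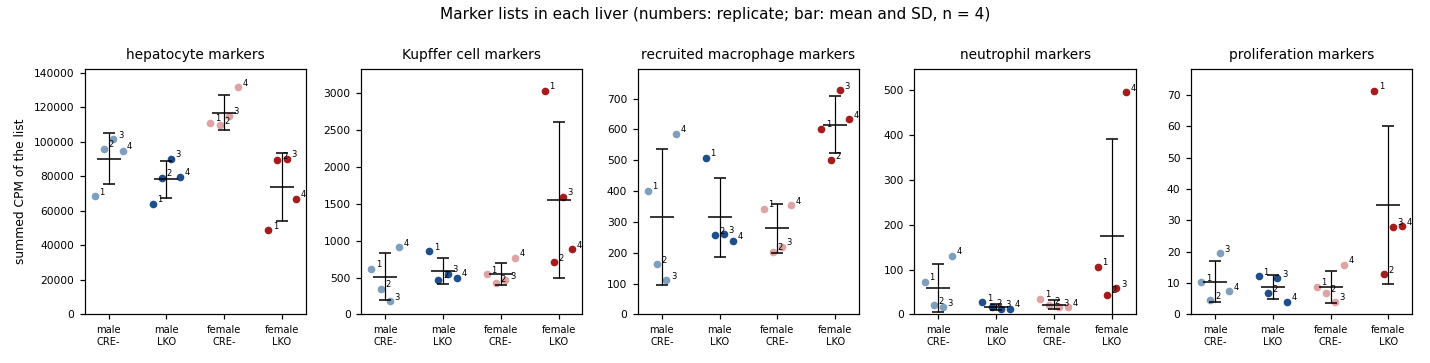
Summed CPM of marker lists in each liver, on linear axes that start at 0, with points for livers (numbers are replicates) and bars for the group mean with SD (n = 4). Female LKO liver 1 reaches 3026 CPM for Kupffer cell markers and liver 4 reaches 496 CPM for neutrophil markers.

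The DNA before the starts of the members was searched for the κB motif, the binding motif of the family, taken in its published consensus forms of 10 bases and on both strands. RefSeq promoter sequences (table built on GRCm38.p6) were matched by symbol for 8 of the 10 genes, with 11 starts, and placed on GRCm39 by exact match. Nfkb1 and Relb had no entry. The motif was present in the 250 bases before the start in 7 of the 8 genes, all but Rela, and in 9 of the 11 starts. It was present in 11.8% of 32841 such windows over all genes and in 14.5% of the 15938 windows of genes tested. These shares count windows, so the 9 of 11 starts is the like count. The members were taken by role in the pathway, some as its induced targets and feedback inhibitors. Their share is therefore not independent of that choice and tests nothing. A match is a description of the sequence and not a measured binding site.

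The 250 bases before the start are shown for the members with an unadjusted p under 0.05 in females that had an entry, as the genes on which the female results turn. Overlapping matches to the motif are joined and in capitals.
Nfkbia, chr12:55539433-55539682, minus strand: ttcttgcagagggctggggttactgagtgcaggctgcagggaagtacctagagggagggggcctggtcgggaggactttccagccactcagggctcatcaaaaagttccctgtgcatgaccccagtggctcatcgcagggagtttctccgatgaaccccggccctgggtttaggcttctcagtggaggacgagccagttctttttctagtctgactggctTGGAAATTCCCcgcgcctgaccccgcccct
Tnfaip3, chr10:18891159-18891408, minus strand: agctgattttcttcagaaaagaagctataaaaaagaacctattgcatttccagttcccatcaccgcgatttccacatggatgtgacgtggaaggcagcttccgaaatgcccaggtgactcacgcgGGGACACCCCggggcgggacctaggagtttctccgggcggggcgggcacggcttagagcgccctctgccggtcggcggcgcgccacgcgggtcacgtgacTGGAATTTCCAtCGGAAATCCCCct
Ier3, chr17:36132355-36132604, plus strand: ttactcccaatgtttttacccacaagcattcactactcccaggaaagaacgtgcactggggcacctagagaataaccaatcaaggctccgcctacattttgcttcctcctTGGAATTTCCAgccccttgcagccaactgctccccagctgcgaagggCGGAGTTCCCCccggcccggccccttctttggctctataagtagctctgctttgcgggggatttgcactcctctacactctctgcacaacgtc
Icam1, chr9:20926986-20927235, plus strand: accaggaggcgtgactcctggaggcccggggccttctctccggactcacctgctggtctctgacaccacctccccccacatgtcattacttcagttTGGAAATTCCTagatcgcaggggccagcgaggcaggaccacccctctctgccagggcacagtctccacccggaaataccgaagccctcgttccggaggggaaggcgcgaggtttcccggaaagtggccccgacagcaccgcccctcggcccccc
The Nfkbia match ends 19 bases before the start and the Icam1 match 143 bases before it. Ier3 has 2 matches, which end 129 and 82 bases before the start, and the outer of these in Ier3 and the middle of 3 in Tnfaip3 have the same 11 bases. The start of Tnfaip3 shown is the outer of 2, and the inner one had no match.

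**Figure D4:**
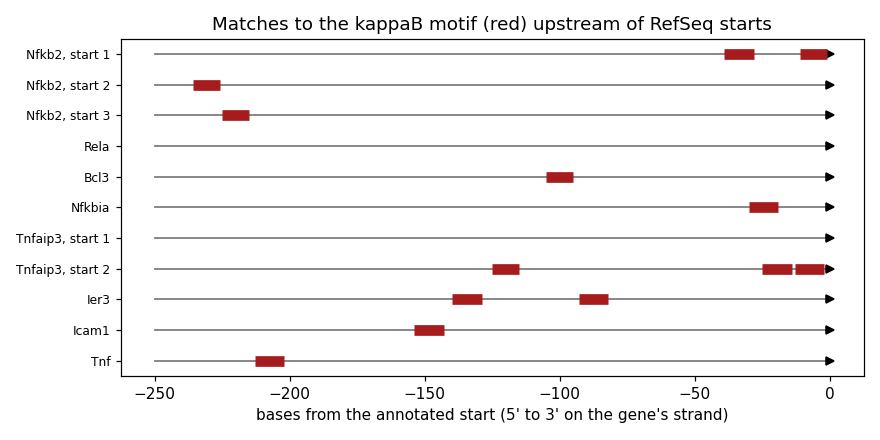
Map of κB motif matches (red) in the 250 bases before each RefSeq start of 8 NF-κB genes, drawn 5′ to 3′ with the start at 0. Only Rela and the inner start of Tnfaip3 lack a match.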

How the data were processed

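Liver RNA was sequenced from 4 groups of 4 mice. The gene counts used here are those the authors deposited, made by alignment with STAR 2.7.1a and counting with featureCounts of Subread 2.0.6. Genes passed filterByExpr with a minimum count of 10 over the 4 groups. All 16 libraries were fitted together with edgeR 4.0.16 (R 4.3.3; TMM factors, quasi-likelihood test), and p was adjusted by Benjamini-Hochberg over all genes tested. Log2 CPM for patterns and spread used a prior count of 2. Alternatives used DESeq2 1.42.0, limma 3.58.1 with sample quality weights, RLE or upper-quartile factors, other filters, each sex alone, a replicate block, and each library left out. The steps were tested on simulated data. Libraries were checked for duplicates (smallest chi-square per degree of freedom between libraries of a group 36.5). Promoters were searched with Python 3.11.15.

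The members and the lists (pathway, targets, cell type markers) were chosen with earlier results of these data known. Of the pathway and target lists, genes past the threshold were named, with up to 5 in each direction and sex by smallest unadjusted p; the pattern of each member was matched to the gene with the smallest root mean square difference. Vcam1 and Gadd45b fall under this rule. Protein measurements of the study were not used here.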

Additional observations from a re-analysis of the deposited data

Results flagged for a closer look

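The level of each of the 10 genes was examined in each of the 4 groups, 40 groups of values in all, for a liver standing far from the other 3 by Dixon's criterion. It was met in 5 of the 40, where chance gives about 5% if values follow a normal distribution. The values here were linear CPM, whose distribution was not examined, and genes of the same liver are not independent. No share of all genes stands beside this count, so it does not show a trait of the members. Rela in male CRE- liver 4 was at 54.8 CPM, where the next liver of the group was at 48.7 CPM. Bcl3 in female LKO liver 4 was at 62.6 CPM, where the next was at 28.0 CPM. The same liver had Ier3 at 15.8 CPM, with the next at 4.59 CPM. Male LKO liver 1 had Tnfaip3 at 9.39 CPM, with the next at 3.83 CPM, and Ier3 at 4.89 CPM, with the next at 1.94 CPM. All 5 were the highest of their group.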

How the results depend on the processing

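The counts of genes called in females moved more by DESeq2, limma-voom, the replicate block and females fitted alone than with other factors or filters. More than the test differed there, as limma-voom also brought quality weights and DESeq2 gave an adjusted p to 16359 genes in females. In females 710 genes were called with the settings of the report, 1816 by DESeq2, 1976 by limma-voom with quality weights, 1244 with the replicate block and 119 with females fitted alone. Upper-quartile or RLE factors, a filter of at least 10 counts in every library and no filter gave 552 to 692. In males 76 became 339 by DESeq2 and 148 by limma-voom, and for the difference between the sexes 0 became 371 by DESeq2, 29 by limma-voom and 12 with no filter on low counts. Of the 10 NF-κB genes, 1 was called in females, and 4 by DESeq2, 3 by limma-voom, 4 with the replicate block (Relb, Nfkbia, Ier3 and Icam1), 2 with at least 10 counts in every library (Nfkbia and Ier3) and 0 with females alone, where 6 had an unadjusted p under 0.05 as did 2953 of 15744 genes. In males and for the difference between the sexes the count was 0 under every alternative, including DESeq2, limma-voom and each library left out. The filter of at least 10 counts in every library removed Tnf. Fitting each sex alone uses fewer samples. It called 0.756% of the genes tested in females, beside 4.24% with the settings of the report. In males it called 0.686%, beside 0.454%. The cause of these changes was not tested.

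With each of the 16 libraries left out in turn, the genes called in females ranged from 87 to 1310. They were 385, 87, 122 and 110 without female CRE- livers 1 to 4, 237, 1310 and 404 without female LKO livers 1, 2 and 4, and 428 and 427 without male LKO livers 2 and 4. In males the range was 26 to 111, with 28, 32, 26 and 49 without male CRE- livers 1 to 4, 43, 41, 39 and 40 without male LKO livers 1 to 4, and 50 without female CRE- liver 2. For the difference between the sexes it was 0 to 14, with 10, 14 and 2 without female LKO livers 2, 3 and 4, 2 without male CRE- liver 2 and 14 without male LKO liver 1. The members called in females ranged from 0 to 4, with 0 without female CRE- livers 2, 3 or 4 or female LKO liver 4, 4 without female LKO liver 2, and 2 without male CRE- liver 3 or male LKO liver 1.

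Some of the members' log2 fold changes changed sign, among them Ier3 in males at 0.47 and Icam1 in males at 0.17. Bcl3 in females, at -0.00124, was at 0.0240 with at least 10 counts in every library, 0.00948 by DESeq2, 0.00900 with females alone, 0.00931 with RLE factors, 0.0259 with upper-quartile factors, 0.0448 by limma-voom and 0.00100 with no filter. It ranged from -0.412 without female LKO liver 4 to 0.285 without female CRE- liver 1. It was positive in 10 of these 16 fits, including those without female CRE- liver 4, female LKO livers 1, 2 and 3, male CRE- livers 1 and 3 and male LKO livers 1, 2 and 4, at 0.00645 to 0.139. Icam1 in males was -0.0467 by limma-voom, and ranged from -0.0628 to 0.370 with a library left out, negative without male CRE- liver 3 (-0.05) or male LKO liver 1. Relb in males was 0.0115 with the replicate block, and ranged from -0.375 to 0.118, positive without male CRE- liver 1 (0.04) or 4 or male LKO liver 2 (0.01). Ier3 in males ranged from -0.0659 to 0.776, negative without male LKO liver 1. Nfkb1 in males ranged from -0.145 to 0.0187, positive without male CRE- liver 4 (0.00132) or male LKO liver 4, and Rela from -0.0511 to 0.0371, positive without male CRE- liver 4 or male LKO liver 1 (0.00681). For the difference between the sexes all 69 fits under other alternatives and all 160 with a library left out kept their direction and their side of the threshold. The cause of the sign changes was not tested.

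Replicate numbers are not given as pairs across groups. Across genes, which are not independent replicates, deviations from group means correlated between CRE- and LKO livers of the same number by 0.170, 0.170, 0.144 and -0.0130 in males and 0.173, 0.105, 0.117 and 0.0281 in females. The alternatives were run for the 10 members, Gcgr and the counts, and the other named genes were fitted with the settings of the report alone. With 4 livers a group, single livers decide calls. Tnf, at 6 to 111 counts per library, and Ier3, at 46 to 546, had the lowest counts of the 10 members. The part of depth in the spread of Ier3 was not tested. Whole-liver counts do not say which cells carry a transcript, and transcript levels do not measure NF-κB activity.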
